A study of Mus musculus with 6 samples.

Results

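The genes described here are the vitamin D receptor gene *Vdr*, its retinoid X receptor partners *Rxra*, *Rxrb* and *Rxrg*, the vitamin D enzymes *Cyp24a1*, *Cyp27b1* and *Cyp27a1*, and *Pdia3*, *Med1* and *Trpv6*. They were chosen by name, as the receptor with its partners, catabolism and a target, and were found through their Ensembl identifiers. Of the 10 genes, 9 were analysed among the 24016 genes of the table, and *Rxrg* was not analysed here. The cells were a subclone of MC3T3-E1, a wild-type (WT) mouse preosteoblast line derived from 1 clone, so the cultures are not separate animals. Both groups shared a differentiation of 6 days, with ascorbic acid at 50 μg/ml and β-glycerophosphate at 10 mM. For 24 h, 3 cultures then received vehicle and 3 received 100 nM corticosterone, the main glucocorticoid of mice, and the question was how the osteoblast transcriptome responds to it. The treatment label, worded alike for all 6 libraries, also names 10 nM calcitriol, the active hormone that *Vdr* binds. It does not say separately whether the vehicle cultures received it, and the methods do not mention it for the sequenced cells. If calcitriol was given to the corticosterone cultures alone, its effect and that of corticosterone cannot be told apart in any value below. Passage numbers of 4 to 10 stand in the growth label and of 6 to 12 in the batch label.

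The vitamin D receptor is a nuclear receptor that binds calcitriol, pairs with a retinoid X receptor and attaches to paired sites in DNA, where coactivators link it to RNA polymerase. Calcitriol is made by the 1α-hydroxylase encoded by *Cyp27b1* and broken down by the 24-hydroxylase encoded by *Cyp24a1*, a gene that the active receptor itself switches on. In osteoblasts the receptor is known for regulating bone matrix genes, phosphate hormones and the signals that control osteoclasts.

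*Vdr* and the Rxr genes belong to 1 family with related DNA-binding domains, and a stretch of the coding sequence of their first zinc finger is shown to relate the members to each other. It starts at the finger's last but one cysteine codon and runs through the helix that contacts DNA. The 54 bases were read from the GENCODE M21 transcripts (GRCm38), 5′ to 3′ on the coding strand, and capitals mark bases that differ from *Vdr*. In *Vdr-201* they span exon 3 (chr15:97884794-97884819) and exon 4 (chr15:97876827-97876854), on the minus strand. In *Rxra-201* (chr2:27741787-27741840), *Rxrb-201* (chr17:34034045-34034098) and *Rxrg-201* (chr1:167627315-167627368) they lie within exon 4, on the plus strand.
Vdr: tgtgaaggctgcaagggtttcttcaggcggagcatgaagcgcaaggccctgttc
Rxra: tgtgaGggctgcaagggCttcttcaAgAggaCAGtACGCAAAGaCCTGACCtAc
Rxrb: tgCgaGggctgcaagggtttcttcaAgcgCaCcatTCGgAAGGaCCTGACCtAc
Rxrg: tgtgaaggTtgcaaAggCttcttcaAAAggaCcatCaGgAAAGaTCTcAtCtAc
The Rxr genes differed from *Vdr* at 23, 20 and 19 bases in this order. *Rxrb* differed from *Rxra* at 9 bases and *Rxrg* at 12. No 31-base word of the *Vdr*, *Rxra* or *Rxrb* transcripts occurs in a transcript of another gene, so reads of one do not match another over that length.

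*Vdr* lies at chr15:97854425-97910630 of GRCm38 on the minus strand. The stretch before its RefSeq start site is shown because *Vdr* was the member with the largest called change. RefSeq (GRCm38.p6) gives 250 bases before the start, of which the last 14 belong to exon 1 of *Vdr-201* in GENCODE and are left out. The 236 bases printed are chr15:97908311-97908546, read 5′ to 3′ on the minus strand, and capitals mark the GC box letters GGGCGG.
Vdr upstream: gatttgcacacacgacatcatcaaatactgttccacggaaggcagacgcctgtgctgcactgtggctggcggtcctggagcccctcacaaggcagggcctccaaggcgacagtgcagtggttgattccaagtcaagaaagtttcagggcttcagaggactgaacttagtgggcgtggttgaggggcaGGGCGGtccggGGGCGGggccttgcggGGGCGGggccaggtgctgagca
The GC boxes begin 63, 52 and 36 bases before the RefSeq start, and GGGCGG occurs on either strand in 32.7% of the 32851 mouse windows of 250 bases. The full glucocorticoid response element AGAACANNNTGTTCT had no match on either strand of the *Vdr* window and occurs in 0.00913% of all windows. The same held for the vitamin D response elements AGGTCANNNAGGTCA and GGTTCANNNGGTTCA, each present in 0.00609% of windows. The single sites within them, the letters AGAACA (16.1% of windows) and AGGTCA (14.0%) and those of GGTTCA (8.85%), also had no match, and neither did the CCAAT box (33.9%). A missing match says only that these letters are not in this window, and the annotated gene begins further upstream than this start site.

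Each library held 16020401 to 25638645 reads on genes, with 19076586 to 25638645 in the vehicle libraries and 16020401 to 18992332 in the corticosterone libraries. Values are normalized counts, read counts divided by 1 size factor per library, and 3 reads correspond to 2.32 to 3.84 normalized counts. The libraries of a treatment differed by more than read counting error, with a chi-square per degree of freedom of 3.38 to 12.2, against 30.7 to 42.7 between treatments. All 4 glucocorticoid target genes of the treatment check (*Tsc22d3*, *Fkbp5*, *Sgk1* and *Per1*) were higher with corticosterone. The study itself reported these 4 genes as upregulated in the same samples, so the check is not independent evidence. All 10 osteoblast markers were measured, with a summed level of 1.36e+06 to 1.41e+06 normalized counts in vehicle and 1.18e+06 to 1.24e+06 in corticosterone libraries. Of these, 8 fell and 1 (*Spp1*) rose with an adjusted p under 0.05, against 8.64% and 8.95% of all genes. On leaving out 1 library 5 to 7 fell, and *Spp1* lost its call without vehicle library 1 or 3 or corticosterone library 1 or 2. The part of the osteoblast markers in the results below was not tested. The measured markers of macrophages (3 of 5) summed to 125 to 151 with vehicle and 127 to 145 with corticosterone. For adipocytes (2 of 5) the sums were 7.72 to 21.1 and 108 to 133. The rise was that of *Fabp4*, as *Plin1* had 0 to 2 reads in each library. The part of this rise in the results was not tested. Chondrocyte markers (3 of 4) summed to 3492 to 3907 and 2888 to 2935, while endothelial (2 of 4), muscle (2 of 4) and kidney tubule markers (3 of 4) summed to 40.7 or less in every library. In RNA of whole cultures, fewer cells of a type and less RNA per cell cannot be told apart.

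In the corticosterone libraries *Vdr* RNA was 4.00-fold higher than with vehicle, *Rxra* was 16.5% higher and *Cyp24a1* fell by 28.9%. *Rxrb*, *Pdia3* and *Med1* were well measured and did not pass the test, with intervals that lie within a log2 change of 0.25 on either side of 0. *Cyp27b1*, *Trpv6* and *Cyp27a1* had at most 31 reads in any library. The log2(normalized count + 1) values were tested with limma, and p-values were adjusted over all 24016 genes by the Benjamini-Hochberg method. A change was past the threshold where it exceeded 1 on the log2 scale in either direction and its adjusted p was under 0.05. Of the 9 members, 1 (*Vdr*) was higher past the threshold, against 1.47% of all genes, and 0 were lower, against 1.51%. By the adjusted p alone, 2 were higher, against 8.95% of all genes, and 1 was lower, against 8.64%. At an unadjusted p under 0.05 limma gave 4 members, *Rxrb* besides these 3, and edgeR and DESeq2 on the recovered reads also put 0 members lower past the threshold. Among the 13880 genes with a mean of at least 10, to which 7 of the 9 members belong, 28.9% had an adjusted p under 0.05 in either direction. The groups did not overlap for *Vdr*, *Rxra* and *Cyp24a1*, against 29.6% of all genes in either direction. The median log2 fold change was 0.08 over the 8 members other than *Cyp27a1*, which was under the floor of 3 reads in 4 of 6 libraries, and -0.01 over all genes.

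**Figure D1:**
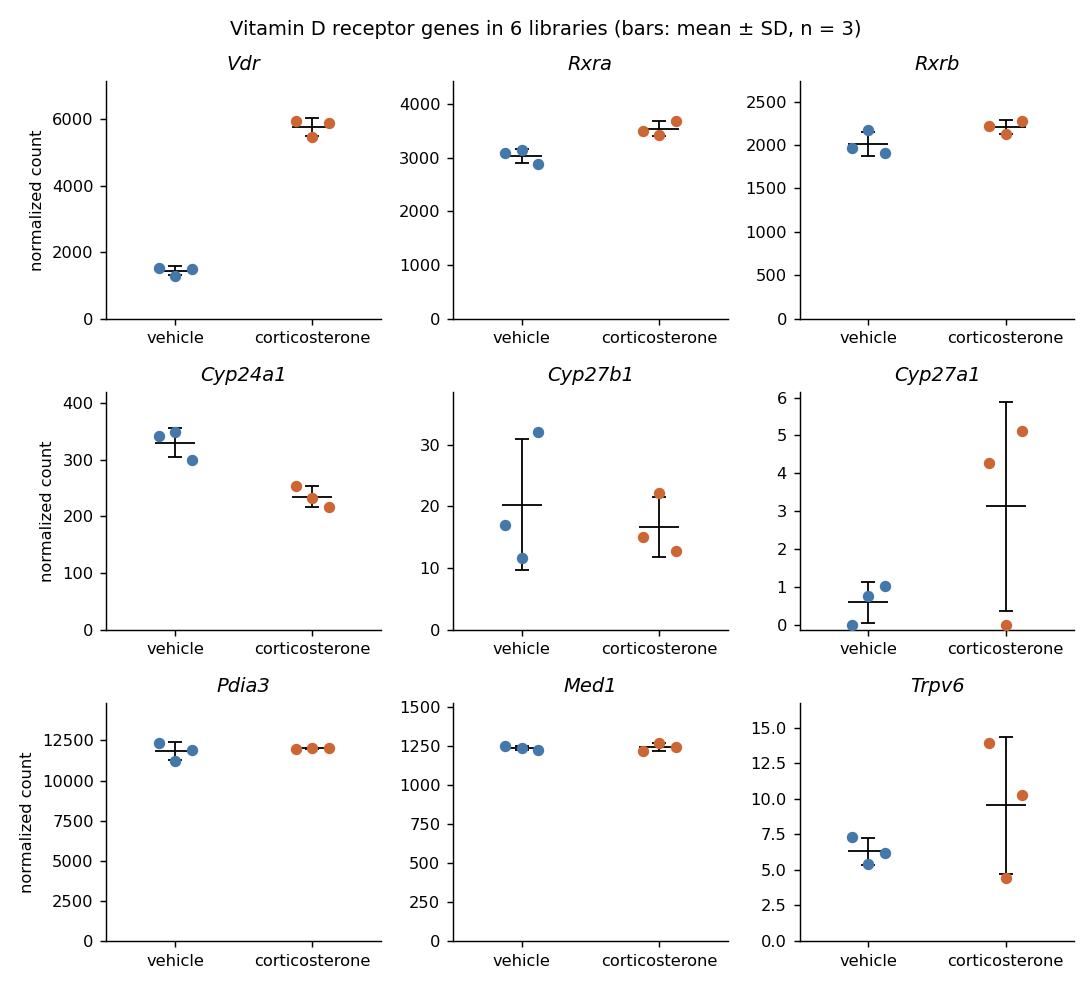
Normalized counts (vertical axes, each from 0 and with its own scale) of the 9 measured members, with 1 point per library, vehicle on the left and corticosterone on the right of each panel, and bars for the mean ± SD of 3 libraries. The groups stand apart for *Vdr*, *Rxra* and *Cyp24a1*, while the points of the other 6 genes overlap.

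The receptor gene *Vdr* (ENSMUSG00000022479) was at 1530, 1293 and 1509 normalized counts in the vehicle libraries. With corticosterone it was at 5961, 5465 and 5891. The lowest corticosterone library was far above the highest vehicle library, and the groups did not overlap. The mean rose from 1444 ± 131 to 5772 ± 269 (SD, n = 3 each). Behind these values stand 1459 to 1887 reads in each library given vehicle, and 4605 to 5568 reads in each given corticosterone. The log2 fold change was 2.00 ± 0.056 (SE), with a 95% interval of 1.89 to 2.12 and a limma adjusted p of 6.9e-20. The limma adjusted p was 0.00255 without the variance trend and 0.000254 to 0.000798 on leaving out 1 library. Within the 13880 genes with a mean of at least 10, *Vdr* ranked 71 by log2 fold change, so that 0.504% of these genes had a larger increase. The two-sided exact permutation test gave p = 0.1, the smallest that 3 against 3 libraries can give.

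*Rxra* (ENSMUSG00000015846, chr2:27676440-27762957, plus strand) encodes the retinoid X receptor alpha, a partner that *Vdr* shares with many other nuclear receptors. It was at 3084, 3142 and 2887 normalized counts with vehicle and at 3499, 3427 and 3691 with corticosterone. All 3 corticosterone libraries were above all 3 vehicle libraries, by a small margin. The mean went from 3038 ± 134 to 3539 ± 136 (SD, n = 3 each). This was a log2 fold change of 0.22 ± 0.047 (SE) with a limma adjusted p of 0.00093. This call was lost without the variance trend (adjusted p = 0.16) and on leaving out vehicle library 1 (0.061) or 3 (0.0623) or corticosterone library 1 (0.0662) or 3 (0.0586).

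*Rxrb* (ENSMUSG00000039656, chr17:34031812-34038399, plus strand) encodes the beta form of the same partner. Its values were 1966, 2173 and 1910 with vehicle and 2224, 2122 and 2281 with corticosterone. Vehicle library 2 lay above corticosterone library 2, so the groups overlapped. The means were 2017 ± 138 and 2209 ± 80.7 (SD, n = 3 each), and the log2 fold change of 0.13 (95% interval 0.025 to 0.24) had a limma adjusted p of 0.0887, which missed the threshold.

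**Figure D2:**
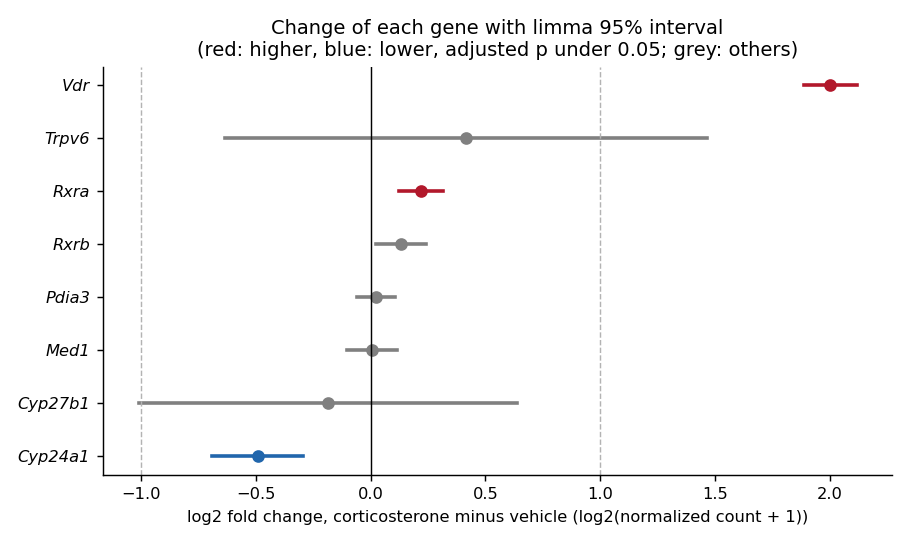
Log2 fold change of the measured members other than *Cyp27a1* (horizontal axis, corticosterone minus vehicle on log2(normalized count + 1)) as a point with its limma 95% interval, coloured by direction where the adjusted p is under 0.05 and grey otherwise, with dashed lines at -1 and 1. *Vdr* lies at 2.00 with an interval of 1.89 to 2.12, while the intervals of the low-count genes *Trpv6* and *Cyp27b1* are the widest.

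The balance of *Vdr* to its partners was also taken within each library. It is not independent of the change of *Vdr* itself, which makes up most of it. Per kilobase of merged exons, the ratio of *Vdr* to *Rxra* was 0.480, 0.398 and 0.505 with vehicle and 1.65, 1.54 and 1.54 with corticosterone. *Vdr* was thus below *Rxra* in every vehicle library and above it in every corticosterone library. Against *Rxrb* the ratio was 0.547, 0.418 and 0.555 with vehicle and 1.89, 1.81 and 1.82 with corticosterone, the same order. The log2 ratio rose by 1.78 for *Rxra* and by 1.87 for *Rxrb*, each with a two-sided exact permutation p of 0.1, and 0.1 after adjustment over the 2 ratios, the smallest possible value.

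**Figure D3:**
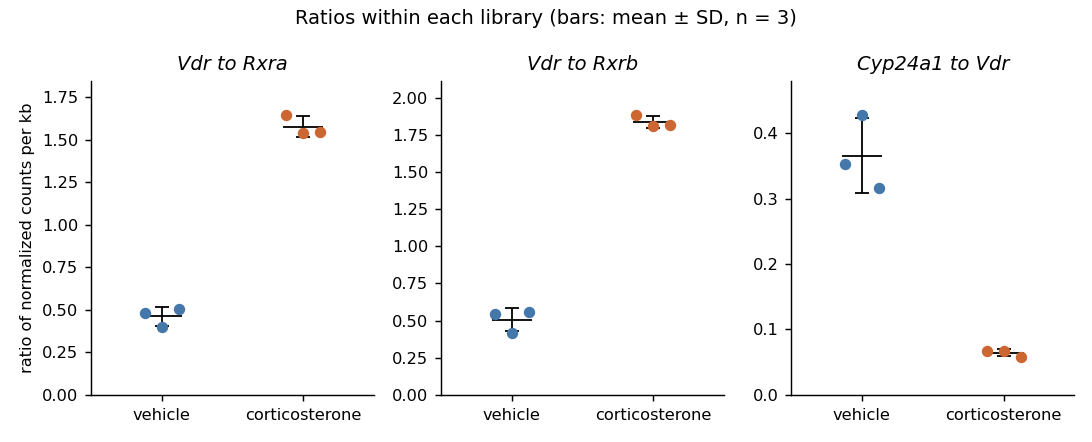
Ratio of normalized counts per kilobase (vertical axes from 0) of *Vdr* to *Rxra*, *Vdr* to *Rxrb* and *Cyp24a1* to *Vdr*, with 1 point per library and bars for the mean ± SD of 3 libraries per treatment. The first ratios go from means of 0.461 and 0.507 to 1.58 and 1.84, and the ratio of *Cyp24a1* to *Vdr* from 0.366 to 0.0645.

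*Cyp24a1* (ENSMUSG00000038567, chr2:170482708-170497145, minus strand) encodes the mitochondrial 24-hydroxylase that inactivates calcitriol and is a textbook target of the receptor. It was at 341, 349 and 299.96 normalized counts with vehicle and at 254, 233 and 216 with corticosterone. The highest corticosterone library was below the lowest vehicle library. The mean went from 330 ± 26.2 to 234 ± 18.8 (SD, n = 3 each). The log2 fold change was -0.49 ± 0.096 (SE) with a 95% interval of -0.69 to -0.29 and a limma adjusted p of 0.00039. It was therefore lower in the same libraries in which *Vdr* was higher, and the ratio of *Cyp24a1* to *Vdr* per kilobase went from 0.366 ± 0.0574 to 0.0645 ± 0.00541, given as a description. The call was lost without the variance trend (adjusted p = 0.0584) and on leaving out vehicle library 1 (0.0579) or 2 (0.0566) or corticosterone library 2 (0.0534). The gene shares 83 exon bases, 2.33% of its merged exons, with *Pfdn4* on the opposite strand, and whether reads were counted by strand is not given in the sources used here.

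*Cyp27b1* (ENSMUSG00000006724, chr10:127048250-127053006, plus strand), which encodes the activating 1α-hydroxylase, was near the lower end of what these libraries measure. It had 21, 15 and 31 reads with vehicle, or 17.03, 11.6 and 32.1 normalized counts. With corticosterone it had 14, 20 and 10 reads, or 14.99, 22.1 and 12.8 normalized counts. The groups overlapped throughout, and vehicle library 3 was the highest. The log2 fold change of -0.19 had an interval of -1.01 to 0.64 and a limma adjusted p of 0.837, which spans 0.497-fold to 1.56-fold.

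*Cyp27a1* (ENSMUSG00000026170, chr1:74713574-74737892, plus strand) encodes a mitochondrial sterol hydroxylase that can also act on vitamin D. It had 0, 1 and 1 reads with vehicle and 4, 0 and 4 with corticosterone. All vehicle libraries were under the floor of 3 reads and 1 corticosterone library had none, so a difference was not detectable at this depth and no fold is given. Over the libraries of a group the 2 vehicle reads have an exact Poisson 95% interval of 0.242 to 7.22 and the 8 corticosterone reads one of 3.45 to 15.8, which cover counting error only.

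*Med1* (ENSMUSG00000018160, chr11:98152154-98193293, minus strand) encodes the Mediator subunit through which the ligand-bound receptor contacts the transcription machinery. It was at 1251, 1238 and 1223 normalized counts with vehicle and 1216, 1270 and 1243 with corticosterone. The groups overlapped and the 6 libraries lay within a narrow range. The log2 fold change of 0.01 had an interval of -0.10 to 0.12 and a limma adjusted p of 0.963, a bound of 1.08-fold upward and 0.932-fold downward.

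*Pdia3* (ENSMUSG00000027248, chr2:121413775-121438687, plus strand) encodes an abundant disulfide isomerase of the endoplasmic reticulum that has also been described as a membrane binder of calcitriol. Its normalized counts were 12345, 11241 and 11902 with vehicle and 11978, 12049 and 12028 with corticosterone. The corticosterone values lay inside the range of the vehicle values. The log2 fold change was 0.02, with an interval of -0.06 to 0.11 and a limma adjusted p of 0.779.

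*Trpv6* (ENSMUSG00000029868, chr6:41620624-41636405, minus strand) encodes a calcium channel that calcitriol induces in the intestine. It had 9, 7 and 6 reads with vehicle and 13, 4 and 8 with corticosterone. Both the highest and the lowest value were from corticosterone libraries, so the groups overlapped. The log2 fold change of 0.42 had an interval of -0.63 to 1.47 and a limma adjusted p of 0.683, and 1.22% of its 31-base words are shared with *Trpv5*.

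The order of the levels differed between the treatments at 1 place. In vehicle libraries the mean level per kilobase of merged exons was 3769 for *Pdia3*, 556 for *Rxra*, 508 for *Rxrb*, 256 for *Vdr*, 141 for *Med1*, 92.6 for *Cyp24a1*, 7.86 for *Cyp27b1*, 1.60 for *Trpv6* and 0.277 for *Cyp27a1*. With corticosterone *Vdr*, at 1022, stood second, above *Rxra* at 648 and *Rxrb* at 556. The others kept their order, with *Pdia3* at 3829, *Med1* at 142, *Cyp24a1* at 65.8, *Cyp27b1* at 6.46, *Trpv6* at 2.42 and *Cyp27a1* at 1.44. Neighbours in this order whose libraries overlapped were *Rxra* and *Rxrb* with vehicle, and *Trpv6* and *Cyp27a1* with corticosterone. Measured per kilobase, *Vdr* was above 84.1% of genes with vehicle and above 96.3% with corticosterone, and *Cyp24a1* above 68.4% and 63.8%.

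**Figure D4:**
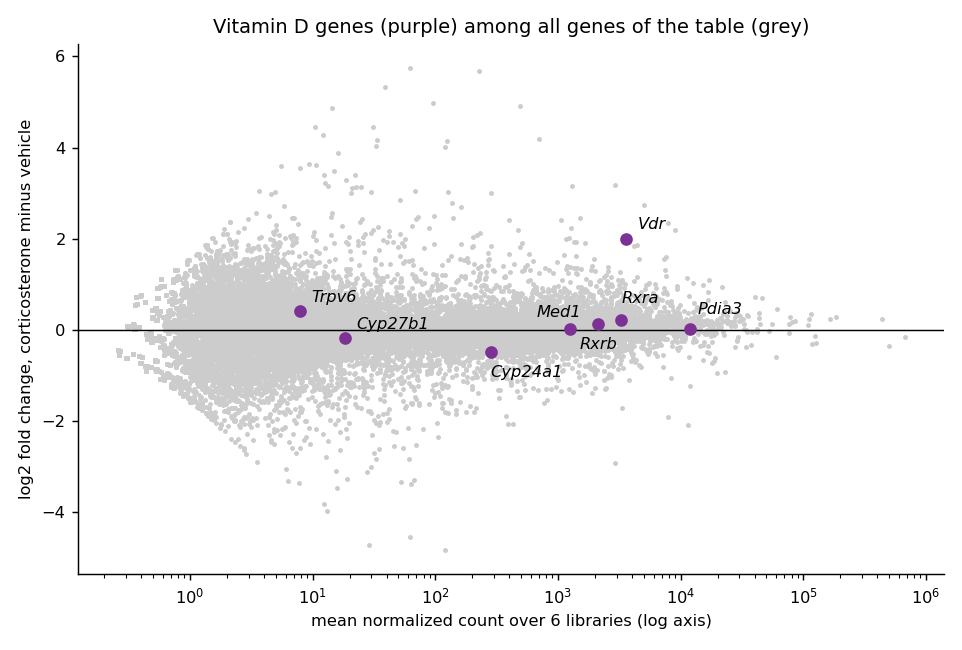
Mean normalized count over 6 libraries (horizontal log axis) against the log2 fold change, corticosterone minus vehicle (vertical axis), with 8 measured members (all but *Cyp27a1*) in purple among all genes in grey. *Vdr* lies at 2.00, with 0.504% of the genes with a mean of at least 10 having a larger increase, *Cyp24a1* lies at -0.49, and *Rxra*, *Rxrb*, *Med1* and *Pdia3* lie between 0.01 and 0.22.

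Further genes of the pathway were followed in fixed lists. Among genes for vitamin D supply and electron transfer, 5 of 8 were analysed here. By the limma adjusted p, 2 rose, against 8.95% of all genes, and 0 fell, against 8.64%. *Fdxr*, the ferredoxin reductase that passes electrons towards the mitochondrial vitamin D hydroxylases, went from 823 ± 18.5 to 1956 ± 57.4 normalized counts (SD, n = 3 each). Its log2 fold change of 1.25 was past the threshold. *Fdx1*, the ferredoxin between the reductase and those enzymes, rose by 0.56 on the log2 scale, a call lost in 4 of the 6 fits that leave out 1 library, those without any vehicle library or corticosterone library 1 (adjusted p of 0.0589 to 0.104). *Cubn*, an endocytic receptor for vitamin D carriers, was at 70.3 ± 14.1 and 47.7 ± 0.449 normalized counts with no overlap. Its adjusted p was 0.0861 in limma, 0.139 in DESeq2 and 0.0463 in edgeR. In edgeR its log2 fold change of -0.56 was not past the threshold. The median of this list was 0.56, against -0.01 for all genes. It includes *Lrp2*, at 0.79, which had only 1 to 8 reads in each library. Of the 16 receptor coregulators, 1 rose (*Ep300*, a histone acetyltransferase, log2 fold change 0.50) and 2 fell (*Ncoa1*, a p160 coactivator, -0.31, and *Smarca2*, a chromatin remodelling ATPase, -0.13). Over all genes, 8.95% rose and 8.64% fell with an adjusted p under 0.05. Among genes with a mean of at least 10, 28.9% passed it in either direction. By limma, edgeR and DESeq2 alike, 0 of the 16 were past the threshold, while 5 had an unadjusted limma p under 0.05. The call of *Smarca2* was lost on leaving out any library and that of *Ncoa1* on leaving out vehicle library 1 or 3 or corticosterone library 1 or 2. The list's median was -0.03, and *Med1* was not the only Mediator gene with a change near 0, since *Med14*, *Med17*, *Med24* and *Med13* were at -0.01, -0.07, 0.06 and -0.12 without passing the test.

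Of 13 other nuclear receptors that pair with retinoid X receptors, 11 were analysed here. By the adjusted p alone, 2 were higher, against 8.95% of all genes, and 2 were lower, against 8.64%. *Nr1h4*, the bile acid receptor FXR, went from 96.5 ± 13.1 to 199.6 ± 1.47 normalized counts (SD, n = 3 each). Its log2 fold change of 1.05 was past the threshold. *Rara*, a retinoic acid receptor, rose by 0.25, while its relative *Rarg* fell by 0.20 and the thyroid hormone receptor *Thra* fell by 0.38 on the log2 scale. The call of *Rarg* was lost on leaving out any library but vehicle library 1, and those of *Rarg* and *Rara* without the variance trend (adjusted p of 0.169 and 0.0866). The other 7 did not pass the test. Among them, *Ppara*, *Nr1i3* and *Rarb* had at most 2, 5 and 13 reads in any library. The list's median of -0.14 includes these low-count genes.

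Of 25 reported calcitriol targets, 21 were analysed here. Of these, 6 rose and 11 fell with an adjusted p under 0.05, against 8.95% and 8.64% of all genes. Among genes with a mean of at least 10, the share was 28.9% in either direction. The list was chosen with earlier results of these data known. The median log2 fold change of the listed targets was -0.15. The counts were 3 and 8 without the variance trend, 3 and 9 without vehicle library 1 or corticosterone library 2, 3 and 8 without vehicle library 3, and 4 and 8 on leaving out any other library. The calls of *Atp2b1* and *Col1a1* were lost on leaving out any library, and those of *Spp1*, *Cdkn1a* and *Itgb3* in 4 of the 6 fits each. *Lrp5*, *Mgp* and *Cebpb* stayed higher in all of these fits. Several of these bone genes are ones the study itself examined on these samples, so their directions are not independent evidence. Past the threshold, *Tnfsf11*, which encodes the osteoclast-inducing ligand RANKL, was higher with a log2 fold change of 1.34. Its call was lost on leaving out any library but corticosterone library 1 (adjusted p of 0.0781 to 0.088). The study's text names *Tnfsf11* among the downregulated genes of these cells, while its supplement marks the gene as increased. Lower past the threshold were the osteocalcin genes *Bglap* (-1.86) and *Bglap2* (-1.81), the RANKL decoy receptor *Tnfrsf11b* (-1.07), the phosphate hormone *Fgf23* (-2.18), the osteoblast transcription factor *Runx2* (-1.15) and the bone sialoprotein gene *Ibsp* (-1.20). *Ibsp* lost its call without vehicle library 2 (adjusted p of 0.0559), and *Bglap* and *Bglap2* are near-identical copies whose reads the counting could split. *Lrp5*, a Wnt coreceptor, and *Mgp*, a mineralization inhibitor, rose by 0.79 and 0.70. The listed targets went in both directions in the libraries in which *Vdr* was higher. The list holds no direction reported for calcitriol, so whether the targets followed the receptor's activity was not tested. A further list held 7 endoplasmic reticulum folding genes around the calnexin cycle, the pathway in which *Pdia3* works. Of these, 0 passed the test in limma, and 1 (*P4hb*) had an unadjusted p under 0.05. edgeR and DESeq2 called *P4hb* lower. The changes ran from -0.11 to 0.07, with a median of 0.02.

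**Figure D5:**
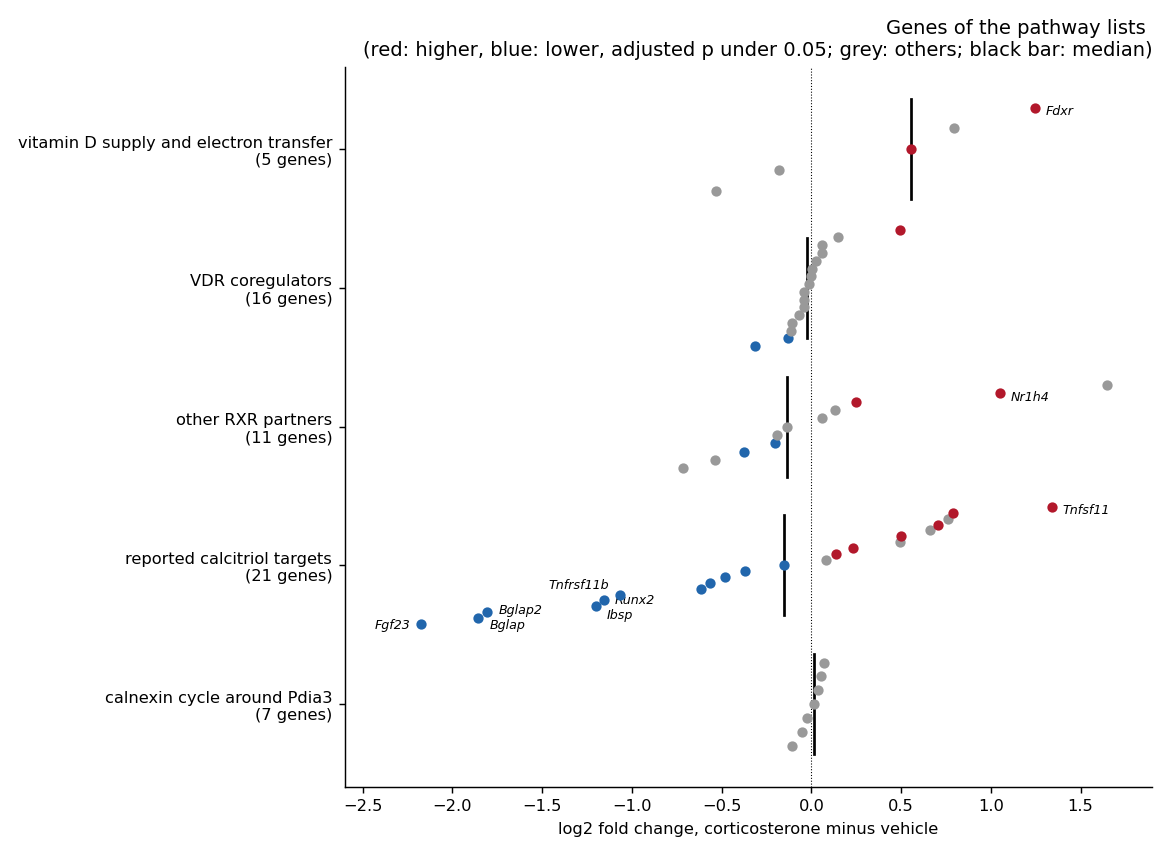
Log2 fold change (horizontal axis, corticosterone minus vehicle) of the genes of the 5 pathway lists, with 1 point per gene, red for higher and blue for lower with an adjusted p under 0.05, grey for the others, and a black bar for each list's median. The reported calcitriol targets spread from -2.18 to 1.34, while the 7 genes listed around the calnexin cycle lie between -0.11 and 0.07.

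The genes whose 6 values, centred on their vehicle mean, were most like those of *Vdr* were *Glul* (glutamine synthetase), *Medag*, *Ces1g*, *Per1* (a clock gene) and *Olfml2b*, of 13879 genes compared. Their root mean square difference from *Vdr* was 0.068, 0.11, 0.12, 0.12 and 0.12 on the log2 scale. *Glul*, the closest, went from 564 ± 67.4 to 2139 ± 48.0 normalized counts (SD, n = 3 each). Most like *Cyp24a1* were *Gm48623*, ENSMUSG00000092486, *Nabp1*, *Gamt* and *Sapcd2*, at 0.051 to 0.059. *Nabp1* went from 473 ± 28.8 to 337 ± 25.7 and *Gamt* from 658 ± 28.2 to 469 ± 21.3 normalized counts (SD, n = 3 each). Changes near those of *Vdr* and *Cyp24a1* follow from the way these genes were picked.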

How the data were processed

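RNA of 3 vehicle-treated and 3 corticosterone-treated MC3T3-E1 cultures was made into libraries with an NEBNext Ultra kit and sequenced commercially on an Illumina platform. The submitters' processing notes name mm10. The aligner, the counting program and the use of strand are not given in the sources used here. In the deposited table each gene has 1 signal value for each library, never below 0. The values are named FPKM, but in every library 100% of them are whole multiples, within 0.01 reads, of 1 step shared by all genes, so they are read counts divided by 1 size factor per library (0.782 to 1.30). The tests had been laid out for FPKM values and were not altered.

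Treatments were compared with limma 3.58.1 (lmFit, eBayes with a variance trend, R 4.3.3) on log2(normalized count + 1), on all 24016 genes with no filter. A fold change on this scale understates the change of low genes. The threshold, a log2 fold change beyond 1 in either direction with an adjusted p under 0.05, is that of the study, which used DESeq2. Ratios between genes were compared with two-sided exact permutation tests. The labels give 3 biological replicates per group. Alternatives were another pseudocount, filters on the mean, other scalings, no variance trend, the replicate number as a block, count tests on the recovered reads with DESeq2 1.42.0 and edgeR 4.0.16 (quasi-likelihood, TMM, filterByExpr), and leaving out each library. The fits were also run on simulated counts with the same dispersion for all genes and large changes only. That check does not cover small changes such as those of *Rxra* and *Cyp24a1*.

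The members, the gene lists and the rule for named genes (every member, and listed genes where past the threshold or needed to describe their list, and the 5 genes most like *Vdr* and *Cyp24a1*) were chosen with earlier results of these data known. Symbols and coordinates came from GENCODE M21 (GRCm38), which matched 23983 of the identifiers. RefSeq windows before the start site were found for 9 of the 10 members. Further steps used Python 3.11.15 with pandas 2.3.3 and matplotlib 3.10.9.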

Additional observations from a re-analysis of the deposited data

How the results depend on the processing

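*Vdr* kept its direction and its call in every alternative. Of 137 values of the members under the alternatives, 122 kept their direction and side of an adjusted p of 0.05, 9 lost the call and 6 changed sign. The 9 losses were those of *Rxra* and *Cyp24a1* given in the report, and the cause was not tested. The sign changes were of genes without a call: *Pdia3* and *Med1* at -0.018 and -0.035 with each library scaled to the same total, and 3 genes with 1 library left out. Over those fits *Pdia3* ran from -0.012 (without vehicle replicate 2) to 0.055, *Med1* from -0.0087 (without corticosterone replicate 2, and -0.0017 without vehicle replicate 3) to 0.023, and *Cyp27b1* from -0.51 to 0.19 (without vehicle replicate 3). Without the variance trend, 1670 genes had an adjusted p under 0.05 (4224 with it), as did 1 member that was higher and 0 that were lower (2 and 1), and 6 listed genes that were higher and 9 that were lower (11 and 15).

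With 1 library left out, the genes past the threshold were 251 to 313 in the higher direction and 229 to 285 in the lower (354 and 362 with all 6), and 2220 to 2743 had an adjusted p under 0.05. By the adjusted p alone, members that were higher numbered 1 to 2 and those lower 0 to 1, and listed genes 7 to 9 and 9 to 11. The difference in the log2 ratio of *Vdr* was 1.68 to 1.85 against *Rxra* and 1.74 to 1.94 against *Rxrb*. These fits have fewer samples, and a group of 2 is assumed to vary like the other.

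The replicate numbers were not taken to pair the cultures. Deviations of same-numbered libraries correlated at -0.021, 0.014 and 0.021 over 13880 genes, against -0.054 to 0.042 for differently numbered libraries. With 3 libraries per group, these values cannot show how the cultures were set up. With the replicate block, 361 genes passed the threshold upward and 375 downward. By the adjusted p alone, 2 members were higher and 1 was lower with the block, the same counts as without it. With the block, 4481 genes had an adjusted p under 0.05, against 4224 without it. The recovered reads gave 283 and 271 genes with edgeR, 319 and 295 with edgeR and the block, and 269 and 245 with DESeq2. edgeR's filter dropped *Cyp27a1* and *Trpv6*. Depth limits *Cyp27b1*, *Trpv6* and *Cyp27a1*, whose reads per library reach 31, 13 and 4. Scaling each library to the same total moved the median log2 fold change from -0.0053 to -0.047.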
